A study of Mus musculus with 4 samples.

Results

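The chemokine genes Cxcl1, Cxcl2 and Cxcl3 and the receptor gene Cxcr2 were followed on 4 Affymetrix expression arrays of mouse bone marrow neutrophils. The 4 genes, of 18193 named on the platform, were taken with every probe set that the platform annotation assigns to them, which gave 6 of 45101 probe sets: 3 for Cxcl1 and 1 each for Cxcl2, Cxcl3 and Cxcr2. The groups were miR-125a knockout neutrophils (miR-125a-/-) after 3 h with lipopolysaccharide (LPS), wild-type neutrophils (miR-125a+/+) after 3 h with LPS, unstimulated knockout neutrophils and unstimulated wild-type neutrophils. All mice were C57BL/6 and 8 weeks old, and the cells were isolated from marrow with a magnetic bead kit and kept in medium with serum. Each array carried RNA pooled from 3 experiments, so every group holds 1 array, no difference has a replicate check and no test was run. Unstimulated cells are labelled both as 0 h and as given no LPS, so LPS and time in culture cannot be told apart. The labels do not say in which cells or tissues the knockout applies.

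Cxcl1, Cxcl2 and Cxcl3 encode small secreted proteins of the CXC class that attract neutrophils by binding CXCR2, a receptor coupled to inhibitory G proteins on the neutrophil surface. Macrophages, endothelium and stromal cells release these ligands during infection, and neutrophils themselves also make them, CXCL2 above all, so that cells that arrive first can call in more. In the bone marrow, signals through CXCR2 favour the release of neutrophils into blood. LPS, the outer membrane component of Gram-negative bacteria, is sensed by Toll-like receptor 4, and NF-kB is a main transcription factor below that receptor.

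The microRNA that the knockout mice lack gives the following mature strands in RefSeq (GRCm38.p6), printed with the seed, bases 2 to 8, in capitals because these bases guide a microRNA to its targets. They lie at chr17:17830817-17830840 and chr17:17830855-17830876 on the plus strand.
mmu-miR-125a-5p: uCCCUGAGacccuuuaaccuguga
mmu-miR-125a-3p: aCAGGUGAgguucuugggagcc
Matches to these seeds in the transcripts of the 4 genes were not analysed here.

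In the RefSeq gene order of chromosome 5 the run of CXC genes reads Cxcl5, Ppbp, Pf4, Cxcl3, Cxcl15, Cxcl1 and Cxcl2, while Cxcr2 lies on chromosome 1. The 150 bases before the RefSeq start of each of the 4 genes (GRCm38.p6, plus strand) are printed because the 3 ligand genes share an NF-kB sequence there and had higher signals after LPS. Capitals mark matches to the NF-kB consensus and to ATAAAAG or TATAAA, A/T-rich runs of the TATA-box kind. The stretches lie at chr5:90891095-90891244 for Cxcl1, chr5:90903749-90903898 for Cxcl2, chr5:90785951-90786100 for Cxcl3 and chr1:74153844-74153993 for Cxcr2.
Cxcl1: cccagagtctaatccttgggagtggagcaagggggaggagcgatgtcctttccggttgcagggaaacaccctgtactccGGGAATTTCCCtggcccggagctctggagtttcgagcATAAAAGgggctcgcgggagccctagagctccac
Cxcl2: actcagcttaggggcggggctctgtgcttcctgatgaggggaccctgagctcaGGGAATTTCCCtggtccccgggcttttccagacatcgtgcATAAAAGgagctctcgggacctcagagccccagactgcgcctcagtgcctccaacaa
Cxcl3: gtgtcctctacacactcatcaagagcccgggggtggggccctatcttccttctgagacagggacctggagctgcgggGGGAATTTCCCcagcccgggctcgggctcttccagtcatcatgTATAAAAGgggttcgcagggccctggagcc
Cxcr2: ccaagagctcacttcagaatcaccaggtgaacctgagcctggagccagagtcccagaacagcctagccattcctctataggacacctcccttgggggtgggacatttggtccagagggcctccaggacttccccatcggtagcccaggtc

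The longest run common to the 250 bases before the start of the 3 ligand genes was GGGAATTTCCC, 11 bases that match the NF-kB consensus on both strands in overlapping positions. Its first base lay 71 bases before the start in Cxcl1, 97 in Cxcl2 and 73 in Cxcl3, and the run ATAAAAG began 37, 40 and 44 bases further on. Both strands of all RefSeq windows of that length were searched. The shared run was found in 14 of 32851 windows (0.0426%), the NF-kB consensus in 3.9% and ATAAAAG in 4.83%, and the shared run and ATAAAAG were picked after the sequences had been read. The AP-1 pattern TGANTCA (6.75% of windows) had no match in the 4 windows, the C/EBP pattern TTNNGNAA (36.8%) had 1 match, in Cxcl2, and TATAAA (12.4%) had 1, in Cxcl3, overlapping ATAAAAG. None of the patterns searched had a match in the Cxcr2 window. In global alignments of the 150 bases, the ligand pairs were identical at 53.4% (Cxcl1 and Cxcl2), 57.3% (Cxcl1 and Cxcl3) and 52% (Cxcl2 and Cxcl3) of alignment columns, gaps included, against 46.2% to 48.6% for each ligand with Cxcr2. A match is a description of the sequence, and factor binding was not measured in these data.

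**Figure D1:**
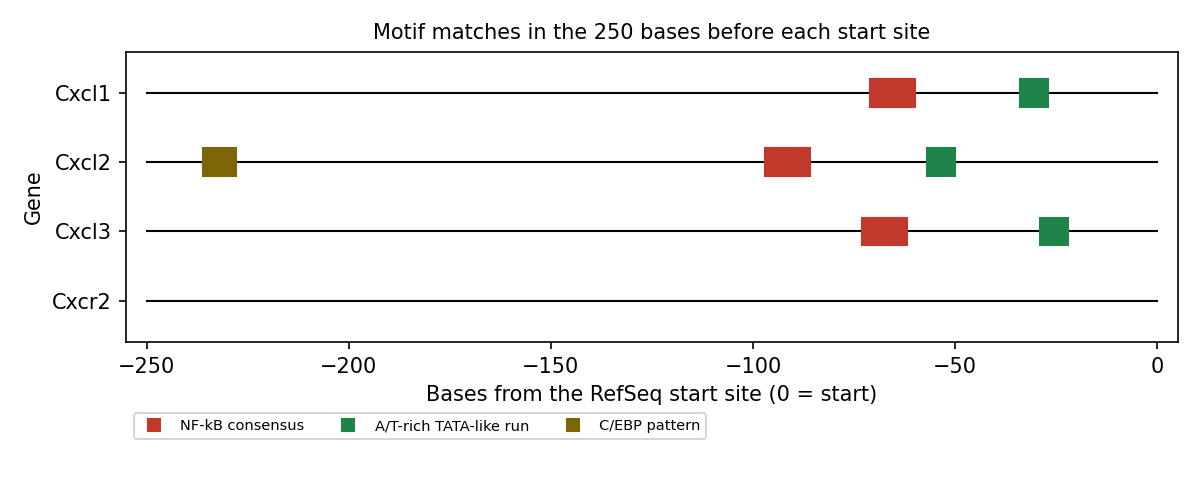
Map of motif matches (coloured boxes) in the 250 bases before the RefSeq start of each gene, with distance from the start in bases on the horizontal axis and 1 row per gene. The NF-kB box and the TATA-like box occur in the rows of the 3 ligands, in the same order, and the Cxcr2 row has none.

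Signals are MAS5 values, the array software's background-corrected summary of a probe set, scaled by the authors to 1 target per array. A floor at a log2 signal of 6.80 (signal 111), the 60th percentile of all values, separates dim from measured probe sets, and between 37.8% and 41.5% of probe sets per array lay above it. A difference of at least 2-fold between arrays was called higher or lower, and it is only a lower bound where 1 of the arrays lay under the floor. Of 11 neutrophil markers 9 were matched, and all 9 lay above the floor on the 4 arrays, with a summed signal of 296675 in knockout and 251497 in wild-type cells after LPS, and of 260193 in knockout and 234395 in wild-type cells unstimulated. Such sums weigh the brightest genes most. Apart from these sums and the choice of probe sets and genes by signal, levels of different probe sets were not set against each other.

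The first comparison concerns the LPS response in each genotype. Of the 4 genes, 3 were higher and 1 was lower after LPS in knockout neutrophils, where 6.62% of 9578 measured genes were higher and 7.99% lower. In wild-type neutrophils 2 were higher, 0 were lower and 2 were neither, where 7.29% of 9507 measured genes were higher and 9.69% lower. The 3 ligands had a median log2 difference of 2.27 in knockout and 2.02 in wild-type neutrophils, against -0.05 and -0.03 over all measured genes. These counts take each gene's brightest probe set, and Cxcl1 depends on which of its probe sets is read.

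Cxcl2, the ligand also known as MIP-2, had a signal of 29846 on the LPS knockout array, against 4442 on the unstimulated knockout array. It had 30619 on the LPS wild-type array, against 7547 on the unstimulated wild-type array. Both LPS arrays were therefore alike and well above the unstimulated arrays, of which the knockout one was the lower. The LPS difference was 6.72-fold in knockout and 4.06-fold in wild-type neutrophils (log2 2.75 and 2.02), as high or higher in 78 and 192 genes of those measured, Cxcl2 included. Among the 1265 genes with a mean log2 signal over 12, 12 in knockout and 34 in wild-type neutrophils had an LPS difference at least as high. The Cxcl2 call held at every setting tried, with log2 differences from 2.14 to 2.86 in knockout and from 1.45 to 2.16 in wild-type neutrophils. Only the changes of scale could move these values, since Cxcl2 has 1 probe set, with signals above every floor.

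Cxcl3, a close relative of Cxcl2 and earlier named Dcip1, had a signal of 447 on the LPS knockout array, against 134 on the unstimulated knockout array. It had 1028 on the LPS wild-type array, against 183 on the unstimulated wild-type array. Both LPS signals exceeded both unstimulated signals, and the LPS wild-type array was the highest of the 4. The LPS difference was 3.33-fold in knockout and 5.6-fold in wild-type neutrophils (log2 1.74 and 2.49), an order between genotypes opposite to that of Cxcl2. The unstimulated knockout signal stood just above the floor, and with the floor at the 75th percentile the knockout difference was a bound of log2 0.26, short of 2-fold.

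Cxcl1, also called KC and the best known mouse neutrophil attractant of stromal and endothelial cells, was read by 3 probe sets. The probe set 1419209_at, the one annotated to the RefSeq transcript of Cxcl1, had a signal of 376 on the LPS knockout array and 353 on the LPS wild-type array, against 44 and 27 on the unstimulated knockout and wild-type arrays, both below the floor. Cxcl1 by this probe set was thus at least 3.38-fold higher in knockout and at least 3.18-fold higher in wild-type neutrophils after LPS. The other probe sets carry the suffixes by which Affymetrix marks probes that may cross-hybridise (_x_) or are shared between transcripts (_s_).

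By 1457644_s_at, Cxcl1 had a signal of 499 on the LPS knockout array, against 117 on the unstimulated knockout array, a 4.25-fold difference. The same probe set had 252 on the LPS wild-type array, against 95.8, below the floor, on the unstimulated wild-type array, at least 2.27-fold. By 1441855_x_at, the brightest on average and therefore the one counted above, Cxcl1 had 605 on the LPS knockout array, against 126 on the unstimulated knockout array (4.81-fold), and 331 on the LPS wild-type array, against 277 on the unstimulated wild-type array (1.19-fold). All 3 probe sets were higher after LPS by 2-fold or more in knockout neutrophils, and 2 of 3 were in wild-type neutrophils. With the floor at the 75th percentile the knockout difference by 1441855_x_at was a bound of log2 0.70, short of 2-fold. The exception in wild-type neutrophils rests on 1 value, the unstimulated wild-type signal of 1441855_x_at, which lay above the floor where the other probe sets did not. Its wild-type difference of log2 0.26 was -0.31 when the poly-A spike-in controls set the scale of the arrays.

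Cxcr2, the receptor of these ligands, had a signal of 2270 on the LPS knockout array, against 4883 on the unstimulated knockout array. It had 2826 on the LPS wild-type array, against 4353 on the unstimulated wild-type array. Both LPS arrays were thus below both unstimulated arrays, the reverse of the ligands. The difference was 2.15-fold lower in knockout neutrophils (log2 -1.11), a call, and 1.54-fold lower in wild-type neutrophils (log2 -0.62), short of 2-fold. In knockout neutrophils 619 of 9578 genes were as low or lower, and in wild-type neutrophils 1875 of 9507. The knockout call stood close to the threshold and read -0.99 under median scaling, while on the poly-A scale the differences were -1.71 and -1.19, both past 2-fold. Fewer cells carrying a transcript and less of it per cell cannot be told apart in these bulk RNA pools.

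**Figure D2:**
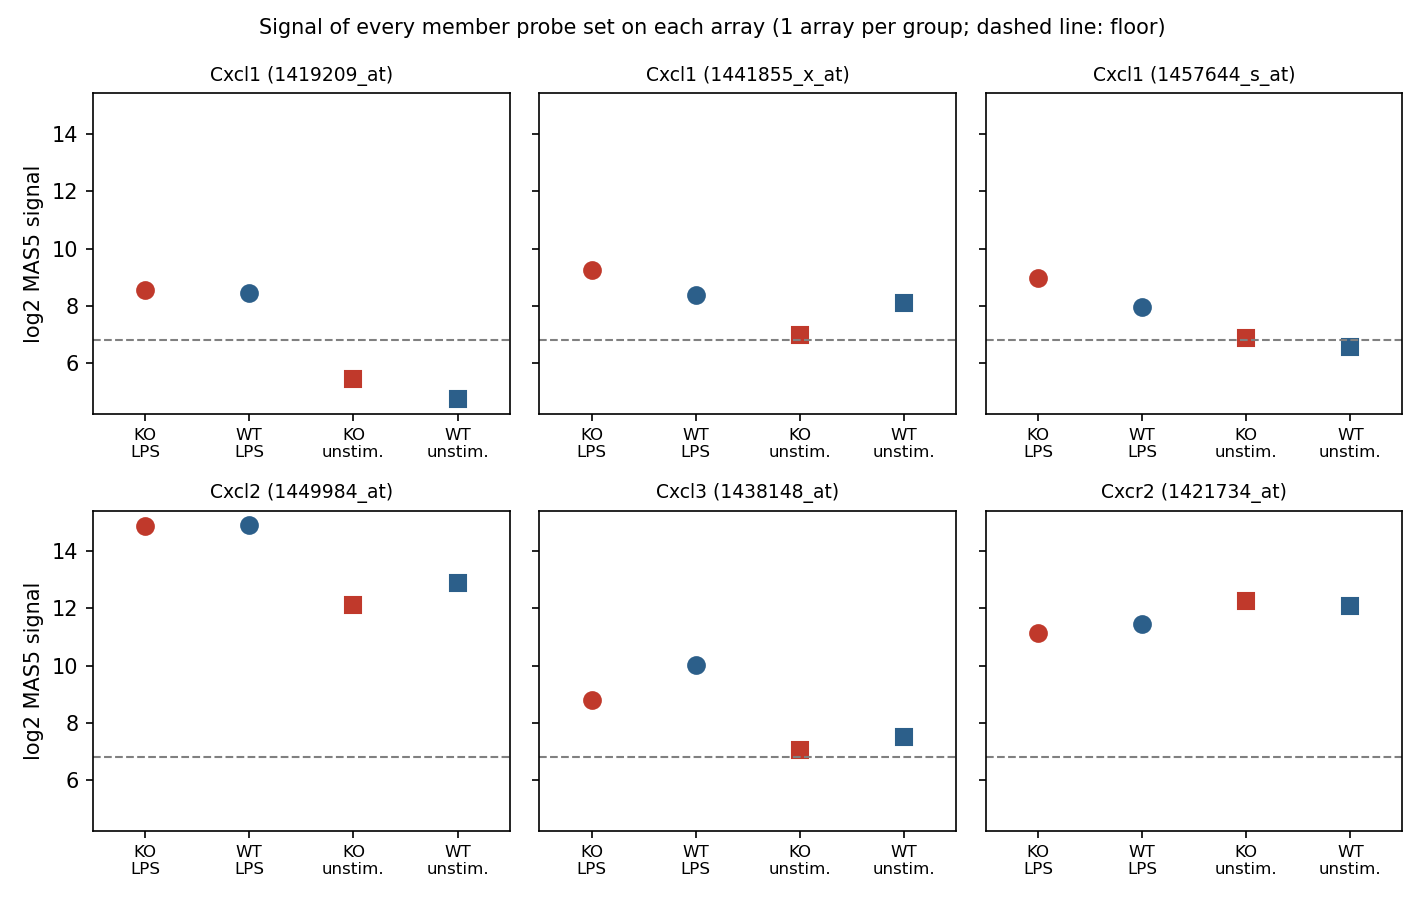
Log2 MAS5 signal of the 6 probe sets (panels) on each of the 4 arrays (horizontal axis, 1 point per array, red for knockout and blue for wild type, circles for LPS and squares for unstimulated), with the floor as a dashed line. Signals of the ligands stand higher after LPS, those of Cxcr2 lower, and the unstimulated wild-type point of Cxcl1 1441855_x_at stands above the floor at 8.11.

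**Figure D3:**
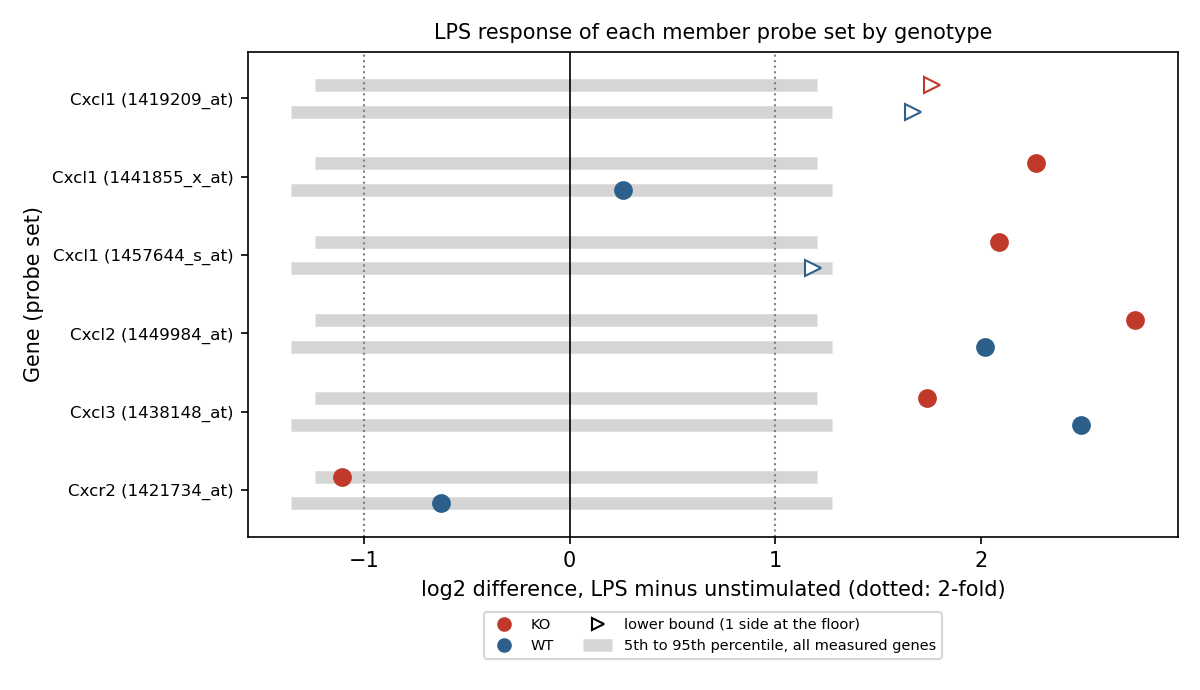
Log2 difference, LPS minus unstimulated, of each probe set in knockout (red) and wild-type (blue) cells, with open triangles for lower bounds, dotted lines at 2-fold and grey bars for the 5th to 95th percentile of all measured genes. Knockout values of the 5 ligand probe sets lie to the right of the grey bar, which ends at 1.20, and Cxcr2 lies at -1.11 and -0.62.

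The second comparison is between genotypes. After LPS, 0 of the 4 genes were higher and 1 was lower in knockout neutrophils, where 0.615% of 9262 measured genes were higher and 0.626% lower. The lower gene was Cxcl3, with 447 on the LPS knockout array, against 1028 on the LPS wild-type array, a 2.3-fold difference (log2 -1.20). Only 33 of the 9262 genes, Cxcl3 included, were as low or lower, and 28 of 3329 genes with a mean log2 signal from 8 to 10 differed by as much in either direction. Over the settings tried the Cxcl3 difference ranged from -1.23 to -1.13, and only the changes of scale moved it. Cxcl2 was nearly equal after LPS, at log2 -0.04, and Cxcr2 had -0.32.

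Cxcl1 after LPS read log2 0.09 by 1419209_at, 0.87 by 1441855_x_at and 0.98 by 1457644_s_at, so all 3 probe sets had the higher signal in knockout neutrophils and none reached 2-fold. Between genotypes after LPS Cxcl3 therefore stood below 0 and Cxcl2 near it. Cxcl1 was also near 0 by 1419209_at, and stood well above it only by the probe sets whose suffixes mark cross-hybridising or shared probes.

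In unstimulated cells, 0 of the 4 genes were higher and 1 was lower in knockout neutrophils, where 0.351% of 9401 measured genes were higher and 0.660% lower. The call was Cxcl1 by 1441855_x_at, with 126 on the knockout array, against 277 on the wild-type array (log2 -1.14). Its other probe sets did not give that call, since 1419209_at was below the floor on both arrays and 1457644_s_at had 117 on the knockout array, against 95.8 on the wild-type array. Cxcl2 was 1.7-fold lower in unstimulated knockout neutrophils (log2 -0.76), short of 2-fold. Among the 1265 genes with a mean log2 signal over 12, 6 differed by at least as much between the unstimulated arrays, Cxcl2 included. Cxcl3 had log2 -0.45 and Cxcr2 0.17.

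**Figure D4:**
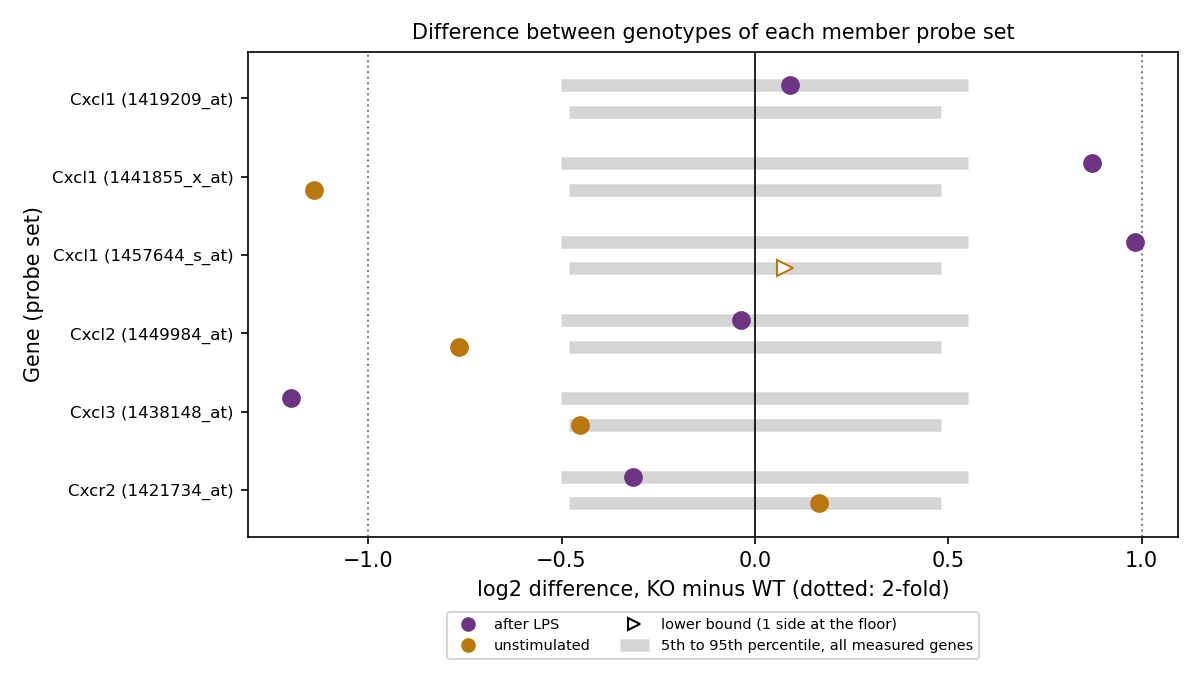
Log2 difference, knockout minus wild type, of each probe set after LPS (purple) and unstimulated (brown), with an open triangle for a lower bound, dotted lines at 2-fold and grey bars for the 5th to 95th percentile of all measured genes. Only Cxcl3 after LPS (-1.20) and Cxcl1 1441855_x_at unstimulated (-1.14) lie past 2-fold, and 1419209_at has no unstimulated point because both arrays were below the floor.

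Setting the LPS responses against each other, knockout minus wild type, gave log2 2.01 for Cxcl1 by 1441855_x_at, 0.73 for Cxcl2, -0.75 for Cxcl3 and -0.48 for Cxcr2. Of 8156 genes above the floor on all arrays 1.01% were called higher and 0.650% lower in this comparison, and of the 4 members only Cxcl1 was called. Just 3 of the 8156 genes, Cxcl1 included, had a value as high, but the other Cxcl1 probe sets had values at the floor and gave no such difference. These differences draw on the same 4 arrays as the comparisons above and are not separate evidence. With no floor Cxcl1 read -0.61 by 1419209_at (LPS differences of 3.10 in knockout and 3.71 in wild-type neutrophils) and 0.69 by 1457644_s_at (2.09 and 1.40), so its direction depended on the probe set. Cxcl2 had the greater response in knockout and Cxcl3 in wild-type neutrophils, both short of 2-fold, and this was not tested.

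Other CXC ligands and receptors of neutrophil recruitment were mostly dim. Of 8 listed genes 7 were matched, and Cxcl5, Cxcl15, Ppbp, Ackr1 and Cxcl12 lay below the floor on all 4 arrays, among them 3 genes of the chromosome 5 run. Dim genes were common on the platform, where 9865 of 18193 named genes lay above the floor on at least 1 array. Pf4, platelet factor 4, had log2 signals of 7.72 on the LPS knockout array, against 9.19 on the unstimulated knockout array, and 8.53 on the LPS wild-type array, against 9.45 on the unstimulated wild-type array. Its differences were -1.47 and -0.92, opposite in sign to those of the neighbouring Cxcl3. Cxcr4, the receptor that retains neutrophils in marrow, was lower in both genotypes, at -1.13 in knockout and -1.15 in wild-type neutrophils, beside -1.11 and -0.62 for Cxcr2.

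Among genes that couple CXCR2 to the cell or switch it off, 20 of 22 listed were matched and measured. After LPS 5 were higher and 0 lower in each genotype (median log2 difference 0.34 in knockout and 0.47 in wild-type neutrophils). Of all measured genes 6.62% were higher and 7.99% lower in knockout neutrophils, and 7.29% and 9.69% in wild-type neutrophils (medians -0.05 and -0.03). On the poly-A scale 0 of the listed genes were higher and 2 lower in knockout neutrophils, and 4 higher and 1 lower in wild-type neutrophils (medians -0.27 and -0.10). Pik3cg, the catalytic subunit of the phosphoinositide 3-kinase that G-protein-coupled receptors activate, had 1.60 in knockout and 1.94 in wild-type neutrophils, and Pik3r5, its regulatory subunit, 1.43 and 1.76. The receptor kinase Grk5 had 1.34 and 1.58, and Adam17, a membrane protease that sheds surface proteins, 1.53 and 1.75. Grk3, another receptor kinase, passed 2-fold in knockout neutrophils (1.11, against 0.82 in wild type), and the Src-family kinase Fgr in wild-type neutrophils (0.97 in knockout, against 1.11). The actin regulator Vasp (0.71 and 0.71), the G-protein subunit Gnb2 (0.31 and 0.51) and the other listed genes were not called. Between genotypes 0 of 20 were called at either time, which is near the shares of all measured genes. Those were 0.615% higher and 0.626% lower after LPS, and 0.351% higher and 0.660% lower unstimulated.

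Of 16 genes on the route from LPS to chemokine transcription 14 were matched, and 3 were higher and 1 lower after LPS in each genotype (median 0.52 in knockout and 0.59 in wild-type neutrophils). Of all measured genes 6.62% were higher and 7.99% lower in knockout neutrophils, and 7.29% and 9.69% in wild-type neutrophils. On the poly-A scale 1 of the listed genes was higher in each genotype, and 3 in knockout and 2 in wild-type neutrophils were lower (medians -0.09 and 0.02). The co-receptors Cd14 (1.52 in knockout and 1.32 in wild-type neutrophils) and Ly96 (1.19 and 1.001) and Tnfaip3, the NF-kB inhibitor A20 (2.84 and 2.99), were higher. Jun, a subunit of AP-1, was lower (-1.83 and -2.19). Nfkbia, which encodes the NF-kB inhibitor IkB-alpha, had 0.74 and 0.51, and Cebpb, a C/EBP factor, 0.69 and 0.51, short of 2-fold. Between genotypes 0 of 14 were called at either time, again near the shares of all measured genes (0.615% higher and 0.626% lower after LPS, 0.351% and 0.660% unstimulated).

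The promoter sequence of the ligands was also followed in other genes. The shared run occurred in the windows of 11 other genes, of which 3 were measured in the knockout and 2 in the wild-type LPS comparison. Zfp84, a zinc-finger gene, had 1.06 in knockout and 0.96 in wild-type neutrophils, Il16, a cytokine gene, 0.44 and 0.83, and Krtap5-3, a keratin-associated gene, a bound of 0.002 in knockout neutrophils only, because its other signals lay under the floor. The broader NF-kB consensus occurred in 1201 other genes, of which 48 of 426 measured (11.3%) were higher in knockout and 58 of 417 (13.9%) in wild-type neutrophils after LPS, beside 6.62% and 7.29% of all measured genes. Their median log2 difference was 0.08 in each genotype. No test was made of these shares.

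Markers of other cells that a marrow preparation can hold moved with the same comparisons. Of 9 monocyte and macrophage markers, all matched, 3 were higher and 4 lower after LPS in each genotype, of 7 measured in knockout and 8 in wild-type neutrophils. Of all measured genes 6.62% were higher and 7.99% lower in knockout neutrophils, and 7.29% and 9.69% in wild-type neutrophils. Adgre1 (5.16 in knockout and 4.94 in wild-type neutrophils) and Csf1r (2.36 and 2.64) were higher, with a bound of 1.43 and 1.90 for Cx3cr1. Ccr2 (-3.54 and -3.88), Klf4 (-4.35 and -4.11), F13a1 (-1.79 and -1.93) and Ly86 (-1.84 and -1.69) were lower, and Mrc1 lay below the floor on all arrays. The summed marker signal was 37840 on the LPS knockout array, against 28706 on the unstimulated knockout array, and 39837 on the LPS wild-type array, against 27815 on the unstimulated wild-type array. Most of each LPS sum was Csf1r and Adgre1, and most of each unstimulated sum was F13a1. The higher sums after LPS therefore follow few genes and do not describe the list as a whole. The part of these cells in the LPS differences of the 4 genes was not tested.

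Of 7 stroma and endothelium markers, which mark common sources of CXCL1, Col3a1, Dcn, Cdh5 and Lepr lay below the floor on all arrays, and the summed signal was lower after LPS, at 737 on the LPS knockout array, against 1097 on the unstimulated knockout array, and 676 on the LPS wild-type array, against 1080 on the unstimulated wild-type array. The collagen gene Col1a2 had -0.95 in knockout and -1.15 in wild-type neutrophils after LPS, and Col1a1 a bound of -0.47 in knockout neutrophils. Kdr, a growth factor receptor of endothelium, went the other way, with a bound of 0.24 in wild-type neutrophils, and lay above the floor on the LPS wild-type array alone. The stroma and endothelium sums include signals below the floor. The part of these cells in the LPS differences of Cxcl1 was not tested. Platelet markers summed to between 295 and 389 on the 4 arrays (4 of 5 matched, Gp9 and Gp6 below the floor throughout), and B cell markers to between 395 and 501 (4 of 5 matched, 3 below the floor throughout). Erythroid markers (4 of 7 matched, Hba-a1 and Alas2 below the floor throughout) summed to 907 and 1022 on the LPS knockout and wild-type arrays, against 2647 and 1653 on the unstimulated knockout and wild-type arrays. Most of each sum was 1 gene, Car2. Both measured genes were lower after LPS in knockout neutrophils, Car2 at -1.48 and Klf1 at a bound of -1.05, beside 7.99% of all measured genes. In wild-type neutrophils Car2 had -0.58 and Klf1 a bound of -0.83, short of 2-fold.

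Eosinophil, basophil and mast cell markers moved with genotype. Their 5 genes summed to 1444 on the LPS knockout array, against 3366 on the LPS wild-type array, and to 1656 on the unstimulated knockout array, against 3909 on the unstimulated wild-type array. In unstimulated knockout cells 4 of 4 measured markers were lower, and after LPS 2 of 3, beside 0.660% and 0.626% of all measured genes. Prg2, an eosinophil granule protein, had -1.23 after LPS and -1.10 unstimulated, and Mcpt8, a basophil protease, -1.48 and -1.61. Epx, eosinophil peroxidase, had a bound of -0.93 after LPS and -1.44 unstimulated, Cpa3, a mast cell protease, had a bound of -1.08 unstimulated, and Fcer1a was below the floor throughout. The part of these cells in the genotype differences of Cxcl3, Cxcl1 and Cxcl2 was not tested.

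Likeness of pattern was measured over the 4 arrays as the root mean square difference of mean-centred log2 signals, among 8155 other genes above the floor on every array. Nearest to Cxcl2 were Gsap (0.06), Mitf, a transcription factor of pigment and myeloid cells (0.10), and Pid1 (0.11). Nearest to Cxcl1 by 1441855_x_at were Bcl11a (0.22), Kctd13 (0.25) and Aqp9, a glycerol and water channel (0.27), and nearest to Cxcl3 were Agtrap (0.25), Icosl, a costimulatory ligand (0.25), and Xaf1 (0.28). Nearest to Cxcr2 were Timm9 (0.03), a mitochondrial import protein, Rmdn3 (0.03) and Rrp15 (0.03). Between the ligands the value was 0.45 for Cxcl2 and Cxcl3, 0.66 for Cxcl1 and Cxcl2 and 0.88 for Cxcl1 and Cxcl3. The nearest genes were picked as the closest of all, so their smaller values are no measure of how alike the ligands were. Of the 8155 genes Cxcl2 had rank 79 from Cxcl3, and Cxcl3 had rank 146 from Cxcl2. Cxcl1 stood further off, at rank 359 from Cxcl2 and 1114 from Cxcl3. From Cxcl1, Cxcl2 had rank 1288 and Cxcl3 rank 4604. The values for Cxcl1 rest on 1441855_x_at.

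**Figure D5:**
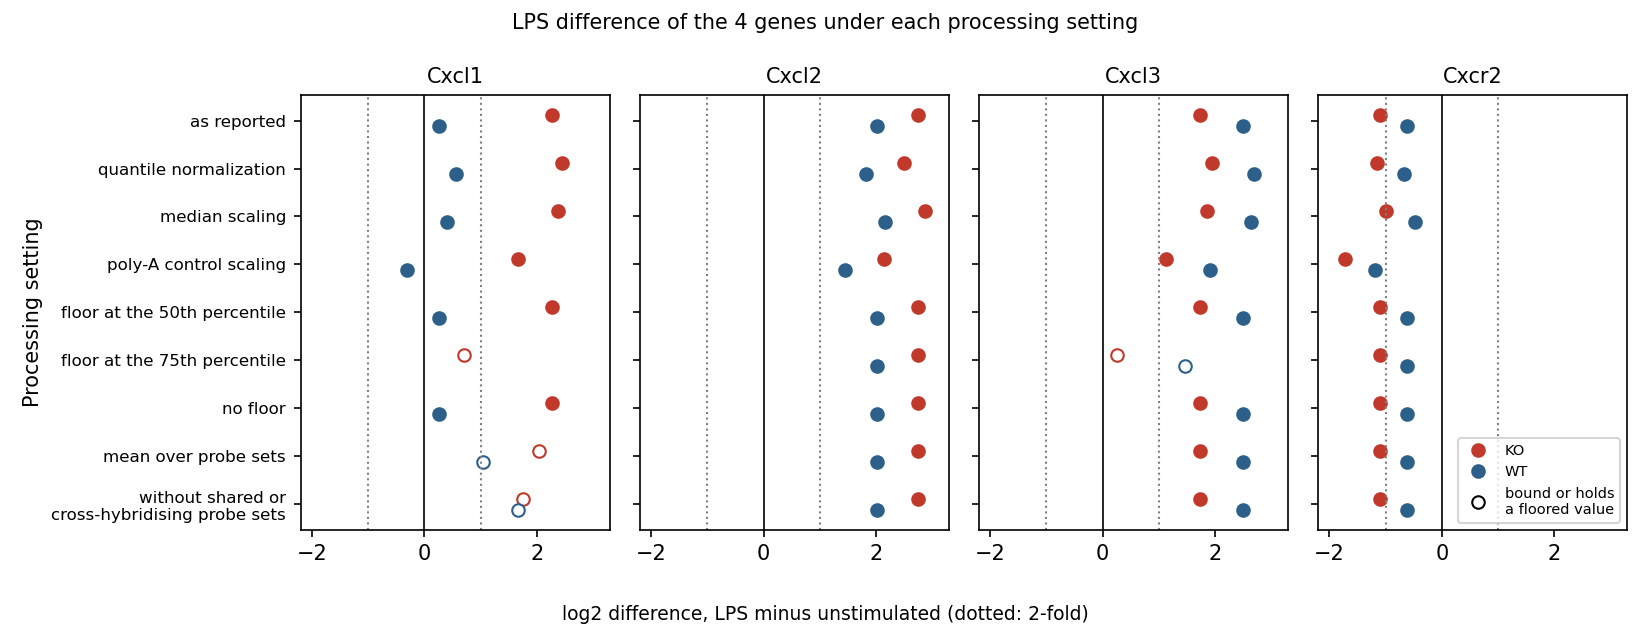
Log2 difference, LPS minus unstimulated, of the 4 genes (panels) under each processing setting (rows), for knockout (red) and wild-type (blue) cells, with open circles for bounds or means that hold a floored value and dotted lines at 2-fold. Cxcl2 stays past 2-fold in every row, Cxcl1 in wild-type cells ranges from -0.31 to 1.67 with the scaling and the probe set read, and Cxcr2 in knockout cells ranges from -1.71 to -0.99.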

How the data were processed

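Each array was deposited as log2 signals of probe sets, which, per the submitters' processing notes, the authors computed by MAS5 in a version that the labels do not give. Unlogged, every array had a trimmed mean of 500.003 or 500.004 (2% off each end), so the arrays share 1 scale and a change common to most genes would be hidden. Zeros numbered 298 to 428 an array. The small number of arrays limits precision.

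The platform annotation gave gene names: 34945 probe sets had 1 symbol, 932 several and 9160 none, beside 64 controls. Symbols were updated by Entrez identifier to RefSeq (GRCm38.p6), and a gene was represented by its brightest probe set on average. Differences are in log2 after raising values below the floor to it. Promoter and microRNA sequences are from RefSeq tables (GRCm38.p6). A protein comparison that had been planned was not made. Symbols without a probe set of their own were not analysed here.

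Alternatives were quantile, median and poly-A control scaling (22 control probe sets), floors at the 50th and 75th percentile or none, the mean over probe sets, and leaving out those whose suffix marks shared or cross-hybridising probes. Named genes were all member probe sets, list genes called at 2-fold with up to 2 others by signal, and the 3 nearest patterns; Zfp84, Il16, Krtap5-3 and the marker genes below 2-fold named in the text were chosen after their values were seen. The members and lists were chosen with earlier results of these data known. Python 3.11.15, numpy 2.4.6 and pandas 2.3.3 were used, and the calling step was tested on simulated data.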

Additional observations from a re-analysis of the deposited data

Results flagged for a closer look

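Cxcl1 by 1441855_x_at had opposite differences between genotypes at the 2 times, with log2 0.87 after LPS and -1.14 unstimulated, knockout minus wild type. Its other probe sets gave no such reversal, and 1 value, the unstimulated wild-type signal, carries it. Cxcr2 also changed sign, with log2 -0.32 after LPS and 0.17 unstimulated, both short of 2-fold. Differences of that size were common among genes with a mean log2 signal from 10 to 12. At least as large were 574 of 2684 after LPS and 1120 of 2683 unstimulated, Cxcr2 included. With 1 array per group neither change of direction was tested.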

How the results depend on the processing

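Of 160 values of the 4 genes under 8 alternatives, 139 kept their side of 2-fold and moved by less than 1.5-fold, 14 did not, 0 of the called ones changed sign and 7 could not be given because values lay at the floor. Many of the 139 could not have moved. Cxcl2, Cxcl3 and Cxcr2 have 1 probe set each, which the choices among probe sets leave unchanged, and a floor leaves signals above it unchanged. No paired analysis was possible because each group holds 1 array. On the poly-A scale, which moved the median of all genes by -0.56 in knockout and -0.52 in wild-type LPS comparisons and so shifts members and other genes alike, the knockout LPS differences were 1.66 for Cxcl1, 2.14 for Cxcl2, 1.13 for Cxcl3 and -1.71 for Cxcr2, and the wild-type one of Cxcr2 was -1.19. Median scaling moved those medians by 0.11 and 0.13 and put Cxcr2 in knockout cells at -0.99. The floor at the 75th percentile left bounds of 0.70 for Cxcl1 and 0.26 for Cxcl3 in knockout and 1.46 for Cxcl3 in wild-type cells, because fewer values exceed it. In the mean over probe sets, which for Cxcl1 holds floored values, Cxcl1 had 1.04 for LPS in wild-type cells, -0.35 between unstimulated genotypes and 1.003 between responses. Without shared or cross-hybridising probe sets Cxcl1 had a bound of 1.67 for LPS in wild-type cells and 0.091 between genotypes after LPS.

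Counts of genes called higher and lower among all genes moved with the processing too. For LPS in knockout cells they were 634 and 765, against 735 and 633 with quantile-normalized arrays, 756 and 615 with median-scaled ones, 314 and 2571 on the poly-A scale, 445 and 412 with a 75th-percentile floor, 2771 and 3042 with no floor and 472 and 505 in the mean over probe sets. For LPS in wild-type cells they were 693 and 921, against 835 and 707, 858 and 729, 337 and 2401, 495 and 528, 2720 and 3292, and 508 and 633 in the same order. Between genotypes after LPS they were 57 and 58, against 47 and 76 under quantile normalization, 62 and 38 on the poly-A scale, 138 and 118 with a 50th-percentile floor, 16 and 24 at the 75th, 2462 and 1898 with no floor and 28 and 31 in the mean over probe sets. Between unstimulated genotypes they were 33 and 62, against 79 and 52 on the poly-A scale, 77 and 105 with a 50th-percentile floor, 11 and 17 at the 75th, 2149 and 1804 with no floor and 15 and 37 in the mean. Between responses they were 82 and 53, against 62 and 74 under quantile normalization, 60 and 64 on the poly-A scale, 168 and 123 with a 50th-percentile floor, 16 and 12 at the 75th, 2978 and 2784 with no floor and 40 and 22 in the mean. The cause was not tested, beyond the number of genes that each floor admits.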
